A study of Mus musculus with 2 samples.

Results

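The genes of the Myb paralogs and of the DREAM complex were examined for binding by Myb, the founding member of their own transcription factor family. The set held 10 genes of the 21938 protein-coding genes annotated in mm10. It consisted of 2 Myb paralogs, Mybl1 and Mybl2, and 8 partners, Foxm1, Lin9, Lin37, Lin52, Lin54, Rbl1, Rbl2 and E2f4. A Myb peak was linked to a gene where its summit, the position of highest signal, lay in the gene body or within 20 kb of it. By this rule 31 of the 25793 peaks were linked to the 10 genes, and no peak was linked to more than 1 of them.

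Binding was measured by ChIP-Seq in lineage-negative (Lin–) bone marrow cells, which are depleted of mature blood cells and richer in stem and progenitor cells, from mice of the WT genotype. One library came from a precipitation with an antibody against Myb (Abcam ab76009 in the labels, although an antibody list in the methods names ab45150) and 1 from rabbit IgG (Cell Signaling, 2729S), and the IgG library served as the background of the peak calls. Whether this antibody also binds the proteins of Mybl1 or Mybl2 was not tested, so a Myb peak here means a peak of this antibody. The study's methods use the name WT for Ep300 fl/fl mice without Cre on a C57BL/6 background, which were injected with poly(I:C) as young adults, but the labels of these 2 samples give neither injection nor age. Lin– purity was above 80%, so other marrow cells could make up the rest. A peak list holds no expression values, so the cell type could not be checked against its markers. With no replicate library, all values below describe 1 library, and no test between groups was possible. Intervals are exact 95% Poisson intervals on the recovered reads and cover the counting error of the Myb reads only, not that of the IgG background.

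MuvB is a core of proteins, among them Lin9, Lin37, Lin52 and Lin54, that has no fixed partner through the cell cycle. In quiescent cells it is joined by a pocket protein (Rbl1 or Rbl2), E2f4 and a DP subunit to form DREAM, which represses cell cycle genes. In cycling cells MuvB exchanges these for Mybl2 and later Foxm1, and then activates genes of G2 and mitosis. Myb itself is the paralog expressed in immature hematopoietic cells, where it is needed for their proliferation. Mybl1 is best known from male germ cells, and Mybl2 is expressed in most dividing cells.

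The sequences around 5 promoter summits are shown because the results turn on how strong these peaks were and on whether they held a Myb motif. Each line gives the 101 bases centered on a summit, on the plus strand of mm10. Capitals mark the Myb motif, which is CAACGG or CAACTG, or the same with T as the first base (TAACGG or TAACTG), on either strand, so that CAGTTG and CAGTTA are its reverse strand forms. The windows are chr1:9701168-9701268 for Mybl1, chr2:163054397-163054497 for Mybl2, chr12:84451526-84451626 for Lin52, chr2:157204607-157204707 for Rbl1 and chr8:105297352-105297452 for E2f4.
Mybl1: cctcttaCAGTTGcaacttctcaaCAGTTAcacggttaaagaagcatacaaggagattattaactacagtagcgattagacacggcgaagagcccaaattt
Mybl2: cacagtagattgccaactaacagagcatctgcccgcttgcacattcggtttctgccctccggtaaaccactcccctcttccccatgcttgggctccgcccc
Lin52: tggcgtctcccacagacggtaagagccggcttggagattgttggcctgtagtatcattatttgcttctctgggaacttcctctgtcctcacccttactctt
Rbl1: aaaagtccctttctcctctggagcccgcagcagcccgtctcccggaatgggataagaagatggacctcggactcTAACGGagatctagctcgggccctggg
E2f4: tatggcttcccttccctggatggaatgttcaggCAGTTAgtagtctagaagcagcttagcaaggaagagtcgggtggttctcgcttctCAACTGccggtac

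A Myb peak was linked to all 10 genes. Among all protein-coding genes 58.6% had a linked peak under the same rule. A promoter peak, with the summit within 3 kb of an annotated start site of the gene, was present at 9 of 10 genes against 39.9% of protein-coding genes. The exception was Lin37. A promoter peak that also reached a −log10 q-value of 5 was present at 6 of 10 genes (Mybl2, Lin9, Lin52, Lin54, Rbl1 and E2f4) against 24.3% of protein-coding genes. The 10 genes also differed from the average gene in their start sites. A CpG-rich start, defined over 500 bases on each side of a start by a GC content of at least 55% and a ratio of observed to expected CpG of at least 0.6, was found at 8 of 10 of them and at 44.5% of protein-coding genes. Among the 9761 protein-coding genes with such a start, 62.8% had a promoter peak and 39.5% had one that reached a −log10 q-value of 5. Of the 8 genes of the set with such a start, 8 had a promoter peak and 5 had one at the stricter threshold. The CpG-rich comparison was added after the values had been seen.

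Peaks linked to these genes within 20 kb were of ordinary strength for the list. Fold enrichment over IgG ran from 2.51 to 13.9 with a median of 4.40, and the median of all 25793 peaks was 4.51 with quartiles of 3.73 and 5.95. The 31 peaks rested on 10 to 49 Myb reads at the summit, with a median of 19, and the median over the whole list was 18 reads. Only 4 of the 31 peaks reached the upper quartile of the list, and 19 lay below its median. The same held at promoters. The median over genes of the strongest promoter peak was 5.34-fold for the 9 genes that had one and 5.25-fold for the 8758 protein-coding genes that had one. The q-value was above 0.05 at 2 of the 31 peaks, near Rbl1 and E2f4, and at 7.24% of all peaks.

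**Figure D1:**
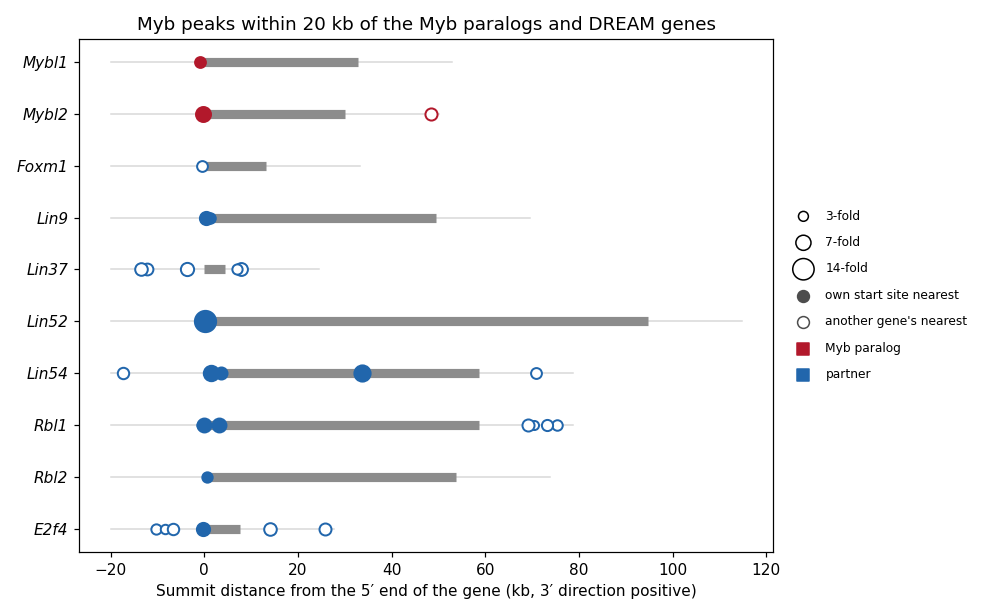
Position of the 31 linked Myb peaks along each gene. The x axis gives the distance of the summit from the 5′ end of the gene in kb, with the 3′ direction positive, gray bars are gene bodies, thin lines are the 20 kb windows, circle area grows with fold enrichment, red marks Myb paralogs, blue marks partners, and open circles are peaks whose nearest start site belongs to another gene. Peaks of Lin37 and the single peak of Foxm1 are all open, while the filled circles of the other genes lie mostly at the 5′ end.

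Mybl2 had the stronger promoter peak of the 2 paralogs. Mybl2 encodes the paralog that joins MuvB in S phase. Its peak, chr2:163054311-163055321, had its summit 240 bp upstream of the start site and 25 Myb reads (16.2 to 36.9) over an IgG background of 1.95. Backgrounds here are the values implied by fold enrichment and Myb reads, not counts of IgG reads at the summit. Fold enrichment was 6.86 (4.56 to 9.97), which placed it above 84.0% of the list. The window around this summit held none of the 4 Myb motif sequences. A second peak, chr2:163102928-163103289, lay in intergenic sequence 27991 bp from the start site, on the 3′ side of the gene. Its 14 reads gave a fold enrichment of 4.496 (2.63 to 7.28), and the nearest annotated start was that of Gm22174, 10245 bp away.

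Mybl1 had a single peak, and it was weaker although it held 2 Myb motifs. The peak, chr1:9700707-9701533, had its summit in intergenic sequence 1009 bp upstream of the start site. Its 22 reads (13.8 to 33.3) were close in number to the 25 of Mybl2, but its IgG background was 4.0. Fold enrichment was 3.59 (2.32 to 5.33), and the −log10 q-value was 3.26 against 10.04 at Mybl2. The ratio of the 2 fold enrichments was 1.91, with a 95% counting interval of 1.11 to 3.29 that held both backgrounds fixed. No peak had its summit inside the gene body of either paralog, although the Mybl2 promoter peak extended past the start site. At the gene of Myb, given for comparison, 14 peaks were linked in a window of 76.1 kb, 7 of them promoter peaks. The strongest of these had 47 reads and a fold enrichment of 14.6 (10.9 to 19.3), so its interval lay above those of the promoter peaks of both paralogs. Its summit lay in a Myb exon, 174 bp downstream of an annotated start inside the gene and far from the gene's 5′ end. The Myb peaks closest to that 5′ end were at 4.08-fold (2.35 to 6.71), 4.10-fold (2.60 to 6.19) and 6.23-fold (4.07 to 9.18). Their intervals overlapped those of both paralogs.

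Foxm1, the forkhead factor that follows Mybl2 on MuvB, had 1 weak peak that also belonged to the promoter of another gene. The peak, chr6:128362321-128362806, had 12 reads (6.20 to 21.0) and a fold enrichment of 3.56 (2.01 to 5.96). Its summit lay 550 bp upstream of Foxm1, inside a UTR exon of Rhno1 and 162 bp from the nearest annotated start of that gene. Foxm1 and Rhno1 lie on opposite strands, and the closest pair of their annotated starts is 56 bp apart. Mybl1 had almost the same fold enrichment with 22 reads, so the 2 values rested on unlike numbers of reads and unlike backgrounds.

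**Figure D2:**
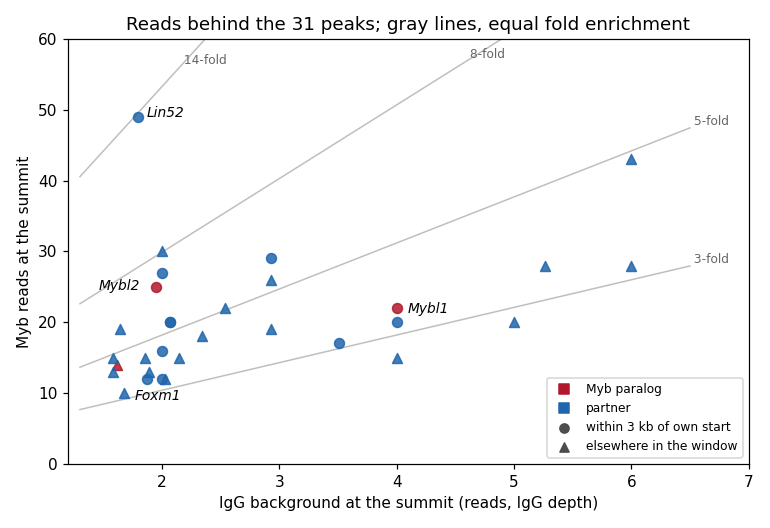
Myb reads at the summit (y axis) against the IgG background implied by the fold enrichment (x axis) for the 31 peaks. The background is in units of reads but is not a count of IgG reads at the summit. Circles are peaks within 3 kb of the gene's own start and triangles are the others. Gray lines join points of equal fold enrichment, and Lin52 stands apart with 49 reads over a background of 1.79, whereas Mybl1 and Foxm1 lie near the same line with 22 and 12 reads.

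Among the subunits of the MuvB core, Lin52 and Lin54 carried the strongest promoter peaks of the whole set. Lin52, a small subunit whose phosphorylation by Dyrk1a favors DREAM assembly, had 1 peak, chr12:84450884-84452331. It had 49 reads (36.3 to 64.8) over a background of 1.79. Fold enrichment was 13.9 (10.3 to 18.2), and 98.8% of the peaks in the list were lower. Of the 8758 protein-coding genes with a promoter peak, 178 (2.03%) had one at least as strong. The summit lay 154 bp downstream of the start site, in an intron, and its window held no Myb motif. Aldh6a1 starts 418 bp away on the opposite strand, so the same peak also lay in the promoter window of that gene. Coding starts on the opposite strand within 1 kb were found at 2 of the 10 genes (Foxm1 and Lin52) and at 12.3% of protein-coding genes.

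Lin54, the subunit that contacts DNA at the cell cycle genes homology region (CHR), had 5 linked peaks. The promoter peak chr5:100498804-100500255 had 27 reads (17.8 to 39.3) and a fold enrichment of 7.26 (4.90 to 10.4), with its summit in an intron, 584 bp upstream of the nearest of the annotated Lin54 starts. A second promoter peak, 1522 bp downstream of a start, had 16 reads and a fold enrichment of 4.44. The highest value at Lin54 was not at a promoter. An intronic peak, chr5:100466598-100467188, lay 18466 bp from the nearest Lin54 start and had 30 reads (20.2 to 42.8) and a fold enrichment of 8.03 (5.52 to 11.3). The last 2 peaks were at 3.60-fold and 3.98-fold, and their summits lay 22 bp from the start of Gm42690 and 286 bp from that of Cops4.

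Lin9, a subunit that with Lin52 takes part in binding Mybl2, had 2 promoter peaks and no other. The stronger one, chr1:180641282-180641906, had 20 reads (12.2 to 30.9) and a fold enrichment of 5.34 (3.39 to 8.08), with its summit in an intron 103 bp downstream of the start. The other lay 1065 bp downstream, with 12 reads and a fold enrichment of 3.41. Lin37, a subunit required for repression by DREAM, was the 1 gene without a promoter peak. Its summits closest to its own start sites lay 3087 and 3681 bp away, just outside the 3 kb limit. Its 5 linked peaks had fold enrichments of 3.22 to 5.35, and each was closer to the start of a neighbor, namely Hspb6, Gm38670, Psenen or Kmt2b. The gene-dense window of Lin37 held 7 other coding genes. Its Kmt2b peaks lay 12267 and 13416 bp upstream of Lin37, and the latter rested on 43 reads over an IgG background of 6.0.

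**Figure D3:**
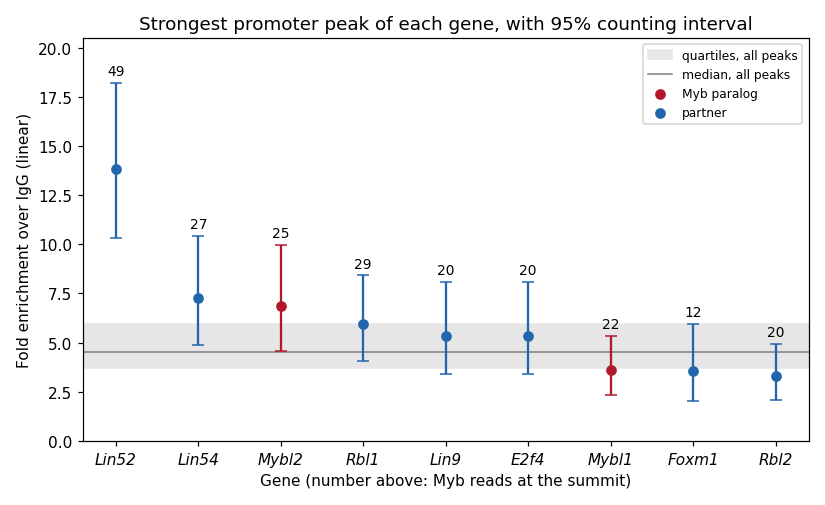
Fold enrichment over IgG of the strongest promoter peak of each gene that had one, on a linear axis from 0. Bars are 95% counting intervals with the background held fixed, numbers are Myb reads at the summit, the gray band spans the quartiles of all peaks and the gray line is their median. Lin52 at 13.9 lies above the band with its whole interval, and Rbl2 at 3.28 is the lowest.

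The 2 pocket protein genes differed in how many peaks they had. Rbl1, which encodes p107, had 7 linked peaks, the most of any gene in the set. Its promoter peak chr2:157204325-157204772 had 29 reads (19.4 to 41.6) and a fold enrichment of 5.94 (4.06 to 8.42), with its summit 123 bp upstream of the start and 1 TAACGG in its window. A neighboring peak 471 bp upstream had 17 reads and a fold enrichment of 3.12, and an intronic peak 3217 bp from the start had 19 reads and a fold enrichment of 5.92. The other 4 lay beyond the 3′ end of Rbl1, at 2.51-fold to 4.45-fold, and all were within 3 kb of a start site of Samhd1. Rbl2, which encodes p130, had a single peak, chr8:91069770-91070698. It had 20 reads (12.2 to 30.9), but over an IgG background of 4.0 its fold enrichment was 3.28 (2.08 to 4.95), the lowest among the strongest promoter peaks. The strongest promoter peak of Rbl1 was 1.81 times that of Rbl2, with a counting interval of 1.06 to 3.11.

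E2f4, the E2F family member that carries the pocket proteins to DNA in DREAM, had 6 linked peaks, of which 1 was at its promoter. This peak, chr8:105297085-105298228, had 20 reads and a fold enrichment of 5.34 (3.39 to 8.08), with its summit 261 bp upstream of the start and 2 Myb motifs in its window. Its fold enrichment and p-value were identical to those at Lin9, since both rested on 20 reads over a background of 2.07. In all, 11 peaks of the list shared this pair of values. The other 5 peaks at E2f4 were at 2.73-fold to 4.86-fold and were nearer to 4931428F04Rik, Gm20163, Mir328 or Lrrc29.

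In descending order of the strongest promoter peak, the 9 genes were Lin52, Lin54, Mybl2, Rbl1, Lin9 and E2f4 together, Mybl1, Foxm1 and Rbl2. Lin52 was 1.91 times Lin54, with a counting interval of 1.21 to 2.998. Every other pair of neighbors in this order had a ratio whose interval included 1. Of all 36 pairs, 15 had an interval above 1, and 8 of these 15 were the pairs with Lin52. The others set Lin54 and Mybl2 each above Mybl1, Foxm1 and Rbl2, and Rbl1 above Rbl2. These intervals cover the counting of Myb reads in 1 library and hold the IgG backgrounds fixed. They are not adjusted for the number of pairs. They carry no estimate of the error of the backgrounds or of variation between mice.

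Compared with their partners, the 2 Myb paralogs had fewer peaks for the length of sequence searched in the 20 kb windows. No counting interval was computed for these densities. There were 3 peaks in 142.8 kb of paralog windows, or 2.1 per 100 kb, and 28 peaks in 660.7 kb of partner windows, or 4.24 per 100 kb. The value over all protein-coding genes was 2.16 per 100 kb. Much of the difference lay at neighboring genes. Lin37, Rbl1 and E2f4 held 18 of the 28 partner peaks, and 14 of these 18 were nearest to the start of another gene. When only peaks nearest to the gene's own start were counted, the density was 1.40 per 100 kb for the paralogs (2 peaks) and 1.66 for the partners (11 peaks). The highest fold enrichment was 6.86 at a paralog and 13.9 at a partner. Lin52 was 2.02 times Mybl2, with a counting interval of 1.27 to 3.20. With backgrounds held fixed, Mybl2 was higher than Foxm1 and Rbl2 beyond the counting error of the Myb reads. Its ratios to Lin54, Rbl1, Lin9 and E2f4 had intervals that included 1. Mybl1 was lower than Lin52 and Lin54 in the same sense, and its ratios to the other 5 partners with a promoter peak had intervals that included 1. The counting error of the backgrounds was not included in these intervals.

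Over the 10 genes, the gene's own start was the nearest annotated start for 13 of 31 peaks, and the corresponding share was 44.1% of the 42159 links between a protein-coding gene and a peak. For the other 18 peaks the nearest start belonged to another gene, and in 16 of these the summit lay within 3 kb of it. At 12 of the 31 peaks the summit was within 3 kb of a start of the gene itself.

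The Myb motif was no more frequent at these summits than elsewhere in the list. It was found within 50 bp of 5 of 31 summits, or 16.1% (exact binomial interval 5.45% to 33.7%), and within 50 bp of 16.7% of all summits. One of the 3 paralog peaks (Mybl1) and 4 of the 28 partner peaks held it. Among promoter peaks it was found at 3 of 12, at Mybl1, Rbl1 and E2f4, and at 14.7% of all 14845 promoter peaks. The remaining 2 were the peaks at the Psenen start near Lin37 and 795 bp from a Samhd1 start near Rbl1. The peaks with the highest fold enrichments of the set, at Lin52, Lin54 and Mybl2, held none in these windows.

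Motifs of the E2F and DREAM machinery were searched as well, on both strands, and were chosen after the values had been seen. The E2F core GGCGGGA was found at 2 of 31 summits, the Lin9 promoter peak and the weaker promoter peak of Rbl1, and at 1.86% of all summits. The CHR (TTTGAA or TTCGAA) was found at 3 of 31 summits against 8.69% of all, 2 of them near Samhd1 and 1 near Hspb6. CCAAT was found at 4 of 31 summits against 11.1% of all, and 1 of the 4 was the weaker Lin54 promoter peak. With so few matches, the shares for the 31 peaks are imprecise.

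Promoter sequences from RefSeq (GRCm38.p6, 250 bases before to 50 after each start) matched 6 of the 10 genes, Mybl2, Lin37, Lin52, Lin54, Rbl1 and Rbl2, with 7 promoters. Mybl1, Foxm1, Lin9 and E2f4 had no entry. GGCGGGA was present in 4 of the 7 promoters (Mybl2, Lin37, Lin52 and 1 of Lin54) and in 11.3% of the 32851 promoters. The longer E2F sequence (TTTCCCGC, TTTCGCGC, TTTGCCGC or TTTGGCGC) can overlap GGCGGGA on the other strand. It was present in 2 of the 7 promoters (Lin52 and Rbl1) and in 2.26% of all promoters. The Myb motif was present in 2 of 7 (Lin37 and Rbl1) and in 28.3% of all. The CHR was present in 4 of 7 (Lin37, Rbl2 and both of Lin54) and in 19.2% of all. CCAAT was present in 3 of 7 (Lin37, Lin52 and 1 of Lin54) and in 37.4% of all. The Mybl2 promoter is shown because its E2F core lay next to the RefSeq start while its Myb peak had no Myb motif at the summit. The GENCODE start from which the summit distance was taken, chr2:163054687, lies further downstream. The line gives chr2:163054515-163054634, the 120 bases before the RefSeq start (GRCm38.p6) on the plus strand, with GGCGGGA in capitals.
Mybl2 upstream: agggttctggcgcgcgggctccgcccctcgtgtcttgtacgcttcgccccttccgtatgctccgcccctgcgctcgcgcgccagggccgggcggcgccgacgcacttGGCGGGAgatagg

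Other genes of the same pathway were counted in 3 lists to set the 10 genes in context. Of 9 further genes of the DREAM, E2F and pocket protein machinery, 9 had a promoter peak that reached a −log10 q-value of 5, against the 24.3% of protein-coding genes and the 39.5% of CpG-rich ones. All 9 had a CpG-rich start. The strongest promoter peak of this list was at E2f2, an activating E2F, with 80 reads and a fold enrichment of 19.0, at 2750 bp upstream. It was followed by Tfdp2 (9.63-fold), a DP subunit, Rbbp4 (8.82-fold), the histone-binding subunit of MuvB, Tfdp1 (8.21-fold), another DP subunit, and E2f3 (5.95-fold). The Rbbp4 peak lay 426 bp upstream of Rbbp4 but nearer to the start of Zbtb8os.

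Of the late cell cycle genes, the known targets of MuvB with Mybl2 and Foxm1, 17 of 20 had a linked peak against 58.6% of protein-coding genes. A promoter peak was present at 16 of 20, against 39.9% of protein-coding genes and 62.8% of CpG-rich ones. A promoter peak at the stricter threshold was present at 8 of 20, against 24.3% and 39.5%. The strongest were at Cdc20 (7.90-fold), an activator of the anaphase-promoting complex, Aurka (7.51-fold), a mitotic kinase, Prc1 (6.98-fold), a spindle midzone protein, Top2a (6.21-fold), a topoisomerase, and Cdc25c (5.80-fold), a phosphatase that activates Cdk1. The Aurka peak lay 247 bp upstream of Aurka but nearer to the start of Cstf1. No peak was linked to Plk1, Cenpe or Ttk. A CpG-rich start was found at 12 of the 20.

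Genes of the G1/S transition, known as E2F targets, had a promoter peak at 16 of 16, against 39.9% of protein-coding genes and 62.8% of CpG-rich ones. At the stricter threshold there were 10 of 16, against 24.3% and 39.5%. The strongest were at Ccne1 (8.88-fold) and Ccne2 (6.65-fold), which encode E cyclins, Cdc6 (7.64-fold) and Cdt1 (6.89-fold), which load the replicative helicase, and Rrm2 (7.29-fold), a subunit of ribonucleotide reductase. A CpG-rich start was found at 11 of the 16. The median strongest promoter peak was 5.95-fold in the DREAM and E2F list, 4.89-fold in the late cell cycle list and 5.34-fold in the G1/S list, so that each lay near the 5.25-fold of protein-coding genes in general.

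**Figure D4:**
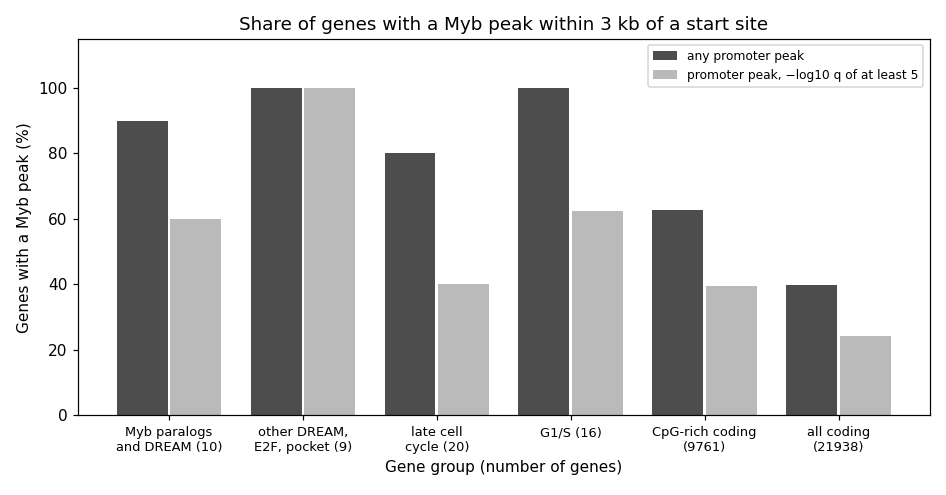
Percentage of genes with a Myb promoter peak (dark bars) and with one that reached a −log10 q-value of 5 (light bars) in the 10 genes, the 3 pathway lists, protein-coding genes with a CpG-rich start and all protein-coding genes, with the number of genes under each. The late cell cycle list has the lowest dark bar of the 4 gene groups, at 80%, and all protein-coding genes are at 39.9%.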

How the data were processed

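ChIP-Seq of Myb and of IgG was performed on WT Lin– bone marrow cells, with 1 library each, grouped by sample title. According to the submitters' processing notes and the study's methods, the authors used Cutadapt 1.15, BWA 0.7.13 (mm10), Picard and MACS2 2.1.1.20160309 with IgG as control. The single deposited peak list gives fold enrichment, a ratio of (Myb pileup + 1) to (IgG background + 1) computed by the authors at the summit, and p- and q-values deposited as −log10 values. The deposited score is the −log10 p-value times a constant, capped, and was not used.

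Summits were set against GENCODE vM21 genes (GRCm38), and every peak lay within its chromosome there. Coordinates are 1-based. Myb reads at each summit were worked out from fold enrichment and p-value. The IgG background is the value that these imply in the ratio. It need not be a whole number and is not a count of IgG reads at the summit. A pileup scale of 0.7695 gave whole reads in 100% of rows within a relative tolerance of 0.02%, and 24 rows allowed more than 1 read number. Recovered reads of 10 to 49 per peak set the precision, and fold enrichment intervals hold the background fixed. Ratios of 2 fold enrichments have 95% intervals from the Poisson variance of the reads on the log scale. The recovery of reads and the motif search were tested on simulated data. No comparison was tested, since there was no replicate. The 10 genes and the 3 lists were chosen with earlier results of these data known. All 10 genes were named, and from each list the 5 genes with the strongest promoter peaks and, where 5 or fewer, those without a linked peak. Alternatives covered the q-value, the window, the promoter definition and the motif. Python 3.11.15, pandas 2.3.3, SciPy 1.17.1, pysam 0.24.0 and matplotlib 3.10.9 were used.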

Additional observations from a re-analysis of the deposited data

How the results depend on the processing

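Under 12 alternatives 61 values were recomputed. Of these, 38 stayed within 1.5 times for a count or within the interval of a fold enrichment, and 23 did not. At a minimum −log10 q-value of 5, 11 peaks were linked to the 10 genes, 1 at a paralog and 10 at partners, with a median fold enrichment of 5.92, the Myb motif at 3 and the gene's own start nearest at 8. With gene bodies alone, 5 genes had 8 peaks, 0 at paralogs and 8 at partners, with a median of 5.63, the Myb motif at 0 and the own start nearest at 8. With a window of 5 kb there were 17 peaks, 15 at partners, with a median of 5.34. The medians with gene bodies alone and with 5 kb lay above the 4.40 of the 20 kb window. The median of all peaks was not recomputed by distance to a gene. With a window of 50 kb there were 52, with 8 at paralogs, 44 at partners and the Myb motif at 11. The motif was found at 2 summits within 25 bp and at 8 within 100 bp, distances for which no share over all summits is given. In the looser form AACNG within 50 bp it was found at 16, or 51.6%, against 54.3% of all summits. Between 6 and 10 genes had a promoter peak under the 5 alternatives run for that count. The highest fold enrichment at a partner stayed at 13.9 in all 6 of its alternatives, and that at a paralog was 8.79 with a window of 50 kb, while gene bodies alone gave none. No paired analysis was possible because there was 1 library per group. The strongest promoter peaks rested on 12 to 49 reads. Of their 36 pairs, 15 had a ratio beyond the counting error of the Myb reads, with the IgG backgrounds held fixed. Whether greater depth would separate more pairs was not tested.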
